A study of Homo sapiens with 6 samples.

Results

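Of the genes that clear or sense nucleic acids in cells, 10 were followed by symbol: the nucleases DNASE2 and TREX1, the 3 subunits of RNase H2 (RNASEH2A, RNASEH2B and RNASEH2C), the deoxynucleotide hydrolase SAMHD1, the RNA-editing enzyme ADAR, the DNA sensor IFI16, the kinase TBK1 and the transcription factor IRF3. Each had 1 row among the 54261 gene rows of the count table, and all 10 passed the filter on low counts that left 16642 genes to test. These genes were chosen by function and by the contrast between the lines, whose fold changes, with that of DNASE2 in the lead, were already known. Their own values in that contrast are therefore a description, and no p-value is given for them. The samples were 3 RNA-seq libraries of 7R, a subline of 786-O that the labels call sunitinib-resistant (sunitinib inhibits several receptor tyrosine kinases), and 3 libraries of 786-O itself, a human clear cell renal carcinoma line without functional VHL, labelled as control. Both lines were grown in 1640 medium. The labels do not give whether drug was present at harvest, whether 7R is 1 clone, or whether replicates were grown separately, so the errors and p-values measure variation among these libraries alone, and that may be technical variation. In such bulk RNA, fewer cells expressing a gene and less RNA of it per cell cannot be told apart.

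DNA and RNA that stay undigested, or that turn up in the wrong compartment, can be read by the cell as a sign of infection. DNASE2 is the acid endonuclease of the lysosome, where it digests DNA from engulfed cells and from autophagy. TREX1 degrades DNA in the cytosol, RNase H2 removes RNA that is paired with or built into DNA, SAMHD1 breaks down deoxynucleotides, and ADAR edits adenosine to inosine in base-paired RNA so that it is not taken for viral RNA. DNA that escapes them is bound by sensors such as cGAS and IFI16, which act through the adaptor STING to bring TBK1 to IRF3, and phosphorylated IRF3 switches on type I interferon genes. Inherited loss of TREX1, of an RNase H2 subunit, of SAMHD1 or of ADAR causes Aicardi-Goutières syndrome, and inherited loss of DNASE2 causes a related inflammatory disease.

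RefSeq promoter windows (build GRCh38.p14, from 250 bases before to 50 bases after the start) were matched for 9 of the 10 genes, all but IRF3. The windows of DNASE2 and RNASEH2A, which were lower in 7R under every scaling tried, and of TBK1 and IFI16, which were higher under every one, are printed to show the sequence at the starts of these genes. Capitals mark matches on either strand to an interferon response element (2 copies of GAAA with any 2 bases between them), the core of the lysosomal CLEAR element (CACGTG), a GC box (GGGCGG) or a CCAAT box (CCAAT). The DNASE2 window is chr19:12881400-12881699 (minus strand), that of RNASEH2A is chr19:12806334-12806633 (plus strand) and that of TBK1 is chr12:64451870-64452169 (plus strand). IFI16 has 2 listed starts, with windows chr1:159008741-159009040 (plus strand) and chr1:159009657-159009956 (plus strand).
DNASE2: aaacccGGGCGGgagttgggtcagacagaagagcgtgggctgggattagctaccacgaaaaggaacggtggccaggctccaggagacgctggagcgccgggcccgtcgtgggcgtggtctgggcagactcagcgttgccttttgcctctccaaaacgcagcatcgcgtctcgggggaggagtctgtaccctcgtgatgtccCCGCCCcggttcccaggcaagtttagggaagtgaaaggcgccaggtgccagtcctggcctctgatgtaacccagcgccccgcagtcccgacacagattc
RNASEH2A: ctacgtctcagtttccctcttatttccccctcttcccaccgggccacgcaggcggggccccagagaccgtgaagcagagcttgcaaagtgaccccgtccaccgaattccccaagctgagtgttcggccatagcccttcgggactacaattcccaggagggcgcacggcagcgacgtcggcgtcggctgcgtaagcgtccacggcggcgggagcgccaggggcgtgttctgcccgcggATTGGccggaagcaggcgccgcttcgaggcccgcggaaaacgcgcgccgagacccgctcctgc
TBK1: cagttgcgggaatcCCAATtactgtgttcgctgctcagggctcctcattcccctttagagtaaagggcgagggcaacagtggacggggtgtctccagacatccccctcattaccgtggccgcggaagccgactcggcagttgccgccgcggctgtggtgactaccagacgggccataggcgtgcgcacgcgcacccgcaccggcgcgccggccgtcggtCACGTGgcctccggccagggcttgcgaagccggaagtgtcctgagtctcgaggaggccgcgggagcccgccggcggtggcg
IFI16, upstream start: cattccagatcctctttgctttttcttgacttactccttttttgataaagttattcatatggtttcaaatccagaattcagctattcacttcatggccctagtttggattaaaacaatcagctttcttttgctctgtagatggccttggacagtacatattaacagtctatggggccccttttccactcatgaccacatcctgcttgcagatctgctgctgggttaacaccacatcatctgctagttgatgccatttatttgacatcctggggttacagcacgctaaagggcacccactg
IFI16, downstream start: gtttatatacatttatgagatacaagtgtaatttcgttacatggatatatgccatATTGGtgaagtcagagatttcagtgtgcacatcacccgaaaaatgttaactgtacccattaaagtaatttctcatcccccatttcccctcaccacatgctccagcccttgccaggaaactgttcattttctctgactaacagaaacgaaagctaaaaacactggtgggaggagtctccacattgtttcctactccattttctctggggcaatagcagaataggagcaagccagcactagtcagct
GC content was 63.7% in the DNASE2 window, 67.7% in that of RNASEH2A, 68.3% in that of TBK1 and 42.3% and 41.7% in those of IFI16, against a median of 58.7% over 35116 promoters. The DNASE2 window held 2 GC boxes, a motif present in 45.0% of all promoters, and no match to the other 3 motifs. TBK1 held 1 CACGTG, present in 7.26% of promoters, and 1 CCAAT box, present in 34.6%. RNASEH2A and the downstream start of IFI16 held 1 CCAAT box each. The interferon response element, present in 3.57% of promoters, matched no window of the 9 genes. A match is a run of letters and not a site shown to be bound, and a missing match says only that these letters are not in the window.

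The 7R libraries held 37919629 to 38131634 counts and the 786-O libraries 48264905 to 52221491. Levels are CPM after TMM scaling, log2 fold changes are 7R over 786-O, and the threshold was an adjusted p of 0.05 in edgeR's quasi-likelihood test. Of all genes tested, 76.2% passed it and 80.3% did not overlap between the lines. The fold change followed GC content, with a Spearman's rho of -0.68 across 14229 genes (a description, since genes are not independent). Its median was 1.31 on the log2 scale in the 1423 genes poorest in GC and -1.35 in the 1423 richest. Each gene is therefore also given after an offset for GC content and transcript length, under which 66.9% of genes passed. Resistant library 1 stood apart from the other 7R libraries, its counts giving a chi-square over its degrees of freedom of 62.9 and 60.1 with them, where those 2 gave 8.94. Control library 1 likewise gave 26.5 and 35.5 with the other 786-O libraries, where those gave 12.4. Renal markers were present in both lines (PAX8 averaged 407 ± 8.89 CPM in 7R and 545 ± 47.2 CPM in 786-O). Of 12 monocyte and macrophage markers, which belong to cells rich in DNASE2 and IFI16, PTPRC, AIF1 and TYROBP had 0 counts throughout, and the list summed to 11.0 to 13.2 CPM in 7R and 46.3 to 56.5 CPM in 786-O, mostly CD68. The extraction label names a brain region while every other label names 786-O or renal cancer cells. The 14 neuron and glia markers summed to 53.1 to 60.4 CPM in 7R and 32.7 to 35.6 CPM in 786-O, mostly MBP, with GAD2, MOG, OLIG2 and NEUROD6 at 0 throughout. SNAP25 averaged 12.9 ± 1.68 CPM in 7R and 3.32 ± 0.460 CPM in 786-O, and SYT1 2.29 ± 0.723 and 0.405 ± 0.128 CPM. AQP4 had 46 counts over the 7R libraries and 0 over those of 786-O. GAD1 was lower in 7R, at 1.86 ± 0.268 CPM against 4.27 ± 1.34 CPM. The 7 fibroblast markers summed to 28.8 to 56.4 CPM in 7R and 10.1 to 12.1 CPM in 786-O. The part of these levels in the results was not tested.

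IFI16 and TBK1 were past the threshold as higher in 7R, 2 of the 10 genes where 39.3% of all genes were. DNASE2, RNASEH2A, TREX1, RNASEH2C and IRF3 were past it as lower, 5 of the 10 where 36.9% of all genes were, and SAMHD1, ADAR and RNASEH2B did not pass. Nothing is read from these counts, since the contrast helped to choose the genes. The lines did not overlap in 8 of the 10, against 80.3% of all genes. After the offset DNASE2, RNASEH2A, SAMHD1, ADAR and RNASEH2B were past the threshold as lower and IFI16, TBK1 and IRF3 as higher, beside 32.6% of all genes lower and 34.4% higher, and TREX1 and RNASEH2C did not pass. The median log2 fold change of the 10 was -0.68, against 0.049 over all genes tested, and -0.22 after the offset, against 0.020.

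**Figure D1:**
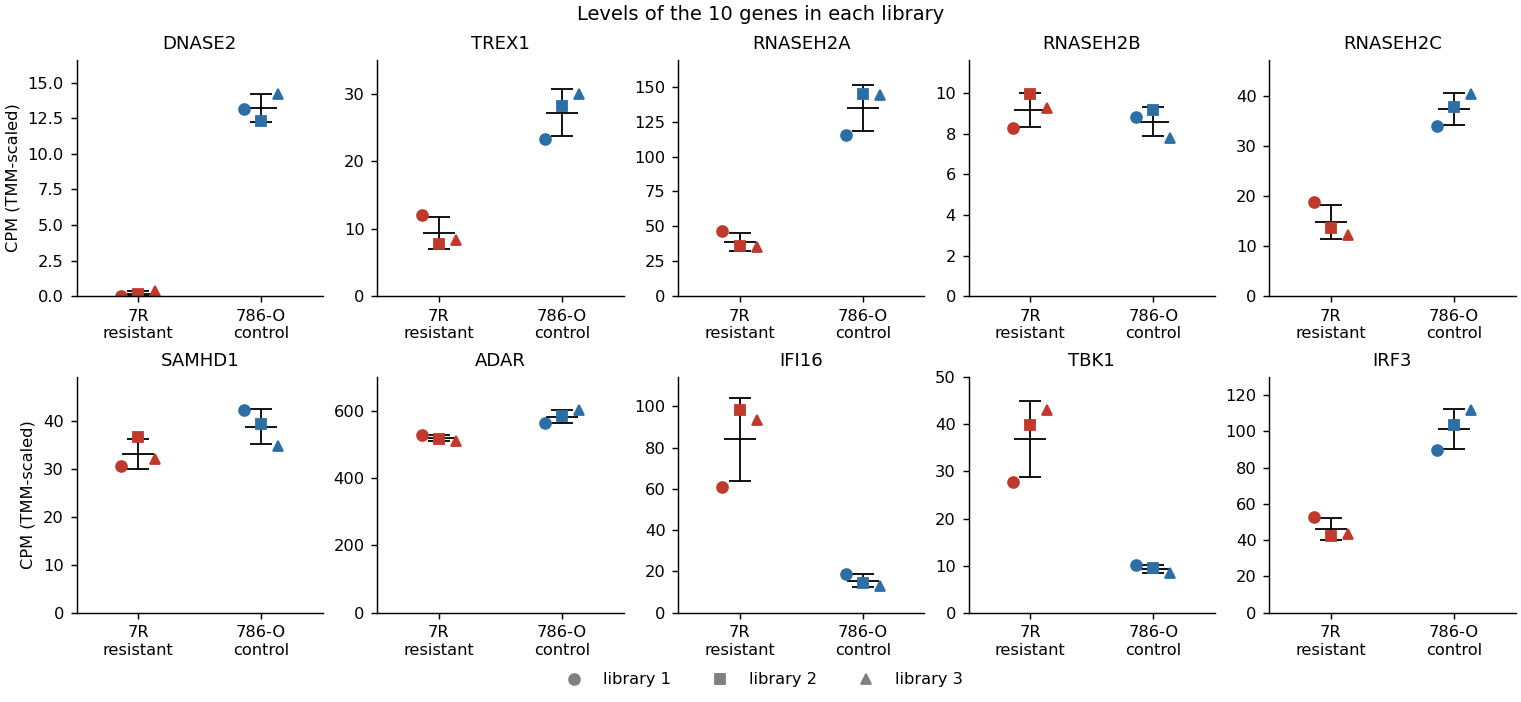
CPM (TMM-scaled, linear axes from 0) of each of the 10 genes in the 3 libraries of 7R (left) and the 3 of 786-O (right), with the mean and SD in black. DNASE2 lies at or near 0 in 7R, IFI16 and TBK1 lie wholly above 786-O, and SAMHD1 and RNASEH2B overlap between the lines.

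DNASE2 was nearly absent from the resistant line. It had 0, 5 and 15 counts in the 7R libraries, against 580, 534 and 644 counts in the 786-O libraries. No 7R library came near the lowest of 786-O, and the 0 in resistant library 1 allows up to 0.0694 CPM (3 counts). Levels averaged 0.157 ± 0.180 CPM in 7R and 13.2 ± 0.962 CPM in 786-O (SD, n = 3 each). Over the libraries summed, 20 counts in 7R stood against 1758 in 786-O, a ratio of 786-O over 7R of 85.1 between TMM-scaled sums, with an exact 95% interval of 54.9 to 139.6 for counting error only. The fitted log2 fold change was -6.38 ± 0.46 (SE), and -5.41 ± 0.45 after the offset. It rests on few 7R counts: it was -7.76 without resistant library 3, which held 15 of the 20, and -5.81 without resistant library 1. The 1423 genes in its range of GC content had a median of -0.96.

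Other DNA nucleases of the lysosome and of the extracellular space were scarce or nearer to level than DNASE2, which was chosen with its fold change known. The paralog DNASE2B had 1 count over the 7R libraries and 0 over those of 786-O, and the secreted nuclease DNASE1L3 had 0 and 1 (both were picked out after their values were seen). DNASE1, the secreted endonuclease that works at neutral pH, averaged 9.16 ± 0.198 CPM in 7R and 9.98 ± 0.706 CPM in 786-O and did not pass (edgeR adjusted p = 0.418), but was higher by 0.42 after the offset. PLD3, a lysosomal exonuclease of single-stranded nucleic acids, fell to 18.98 ± 0.977 CPM in 7R, against 54.2 ± 5.10 CPM in 786-O, a log2 fold change of -1.51 (edgeR adjusted p = 3.97e-07) that became -0.029 after the offset, where it did not pass. RNASET2, the lysosomal RNase, fell to 79.3 ± 5.21 CPM in 7R, against 220.3 ± 18.98 CPM in 786-O (log2 fold change -1.47, and -0.31 after the offset). Of the 28 other nucleases listed 24 were tested, 10 of them higher and 10 lower, beside 39.3% and 36.9% of all genes. After the offset 8 were higher and 9 lower, beside 34.4% and 32.6%. XRN1, the cytoplasmic RNA exonuclease, rose to 117 ± 24.9 CPM in 7R, against 24.9 ± 3.52 CPM in 786-O (log2 fold change 2.23, edgeR adjusted p = 3.48e-07, and 0.90 after the offset). MRE11A, a nuclease of DNA break repair, had a log2 fold change of 1.69 (0.60 after the offset). ERI1, which trims RNA 3′ ends, did not pass at -0.29, but did without control library 2 (-0.44) and after the offset (-1.46).

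Most of the tested lysosomal acid hydrolases were lower in 7R with TMM scaling, and none had a fold change near that of DNASE2. That gap is only a description, since DNASE2 was chosen with its large fold change known. Of 34 listed 32 were tested, 22 of them lower and 3 higher (median log2 fold change -0.70), beside 36.9% and 39.3% of all genes. After the offset 16 were lower and 8 higher (median -0.27), beside 32.6% and 34.4%. The list had a median GC content of 53.6%, and the 1423 tested genes in that range had a median of -0.64 with TMM scaling. The part of GC content in the list was not tested. GAA, the acid alpha-glucosidase, had the most negative value among them, at 3.85 ± 0.628 CPM in 7R and 21.3 ± 1.11 CPM in 786-O (log2 fold change -2.47, edgeR adjusted p = 1.30e-07, and -1.08 after the offset). The protease CTSB had a log2 fold change of -1.57 (-0.61 after the offset), the peptidase TPP1 of -1.36 (-1.15) and the acid sphingomyelinase SMPD1 of -1.77 (-0.45). LIPA, the acid lipase, did not pass (-0.26), but passed without resistant library 3 (-0.34), without control library 1 (-0.37) and after the offset (-1.02).

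The 5 genes whose profile over the 6 libraries was most like that of DNASE2 were S1PR3, KRT19, SYT13, APCDD1L and CDH13, out of 9022 candidates. Likeness was the root mean square difference of log2 CPM values centred on each gene's mean, which was 0.45 for S1PR3, a sphingosine 1-phosphate receptor, and 0.86 to 1.05 for the others. S1PR3 had 0, 2 and 8 counts in the 7R libraries, against 644, 552 and 514 counts in the 786-O libraries. The measure was taken over 2 lines and is led by the gap between them.

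**Figure D2:**
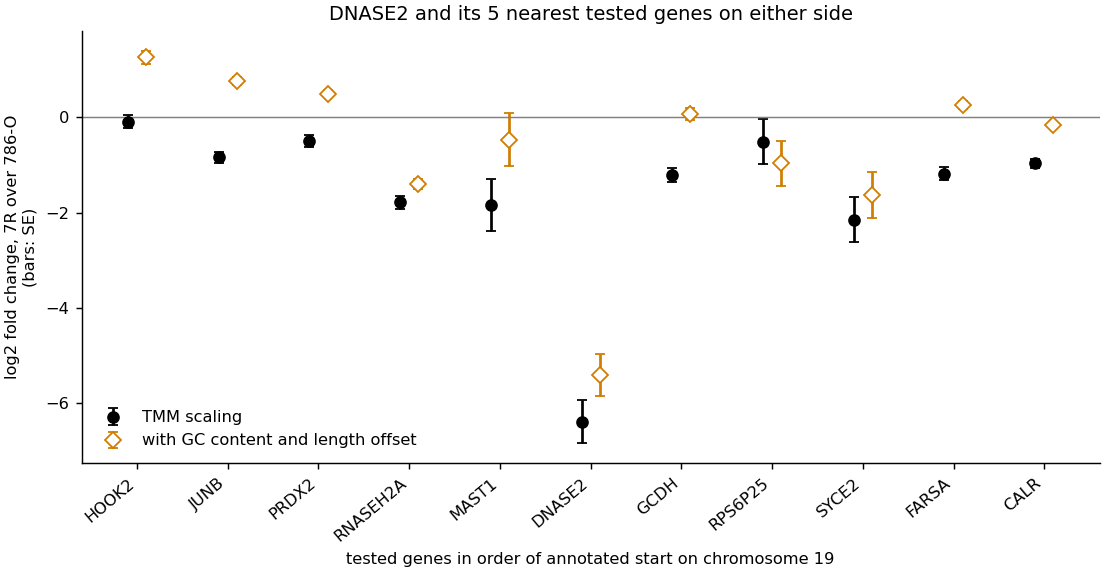
Log2 fold changes (7R over 786-O, bars are SE) of DNASE2 and the 5 nearest tested genes on either side on chromosome 19, in order of annotated start, with TMM scaling and after the GC content and length offset. DNASE2 lies at -6.38 and -5.41, while with TMM scaling the other genes lie between -2.15 (SYCE2) and -0.098 (HOOK2).

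DNASE2 and RNASEH2A lie 60.0 kb apart on chromosome 19 (GENCODE release 29). In order of annotated start, MAST1 is the tested gene between them. The annotation of HOOK2 starts further away but reaches within 2.47 kb of DNASE2. None of the nearest tested genes shared the size of the DNASE2 difference, which was already known when DNASE2 was chosen. MAST1, a kinase gene whose annotation comes within 0.260 kb of DNASE2, had 48 counts over the 7R libraries and 180 over those of 786-O, a log2 fold change of -1.84 ± 0.55 (edgeR adjusted p = 0.00838), and -0.47 after the offset, where it did not pass. On the other side GCDH, a mitochondrial dehydrogenase, averaged 7.65 ± 0.199 CPM in 7R and 17.8 ± 2.94 CPM in 786-O (log2 fold change -1.22, and 0.066 after the offset). SYCE2, a protein of meiotic chromosomes, had 31 counts over the 7R libraries and 143 over those of 786-O and was lower both before and after the offset (-2.15 and -1.64). CALR, the chaperone calreticulin, averaged 1612 ± 106 CPM in 7R and 3157 ± 161 CPM in 786-O (log2 fold change -0.97, and -0.18 after the offset). JUNB, an AP-1 subunit, was -0.84 before and 0.76 after the offset, PRDX2, a peroxiredoxin, -0.50 and 0.49, and FARSA, a tRNA synthetase subunit, -1.18 and 0.26. HOOK2, a microtubule linker, did not pass (-0.098) but was 1.25 after the offset, and the pseudogene RPS6P25 did not pass either way. KLF1, a red-cell transcription factor gene of the region, had 0 counts in all 6 libraries. Of 25 genes listed around DNASE2, 20 were tested, 19 of them lower and 0 higher (median -1.23), beside 36.9% and 39.3% of all genes. After the offset 8 were lower and 7 higher (median 0.010), beside 32.6% and 34.4%. Median GC content in this list was 60.3%, and the 1423 tested genes in that range had a median of -1.19 with TMM scaling. The part of GC content in this was not tested.

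The RNase H2 subunits did not move together. RNASEH2A, the catalytic subunit, had 2007, 1524 and 1485 counts in the 7R libraries, against 5094, 6294 and 6516 counts in the 786-O libraries. Levels averaged 39.0 ± 6.45 CPM in 7R and 135 ± 16.6 CPM in 786-O, far apart, with resistant library 1 the nearest of 7R to 786-O. Its log2 fold change was -1.79 ± 0.14, and -1.41 ± 0.11 after the offset. RNASEH2B, an accessory subunit, had 359, 427 and 393 counts in the 7R libraries, against 389, 398 and 354 counts in the 786-O libraries. Its levels of 9.18 ± 0.837 CPM in 7R and 8.61 ± 0.704 CPM in 786-O overlapped, with a log2 fold change of 0.093 ± 0.15. It was past the threshold in opposite directions under other scalings, at -0.30 ± 0.12 after the offset and at 0.43 with library size alone, and the call after the offset was lost without resistant library 1 (-0.26). RNASEH2C, the other accessory subunit, had 808, 581 and 518 counts in the 7R libraries, against 1492, 1642 and 1829 counts in the 786-O libraries. Those groups did not overlap, but its log2 fold change of -1.33 ± 0.16 became 0.027 ± 0.10 after the offset, where it did not pass. Of its exonic bases 26.4% overlap KAT5 on the opposite strand, itself at -1.21 before and -0.045 after the offset, and how the counting treated strand is not stated.

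Ratios of subunits within a library do not depend on a factor shared by the whole library. The offset differs by gene and does move them. With TMM scaling the log2 fold changes of RNASEH2A, RNASEH2B and RNASEH2C were -1.79, 0.093 and -1.33. After the offset they were -1.41, -0.30 and 0.027, and RNASEH2C rather than RNASEH2B then stood further from RNASEH2A. The ratios that follow are of raw counts without the offset. The RNASEH2B count per RNASEH2A count was 0.179, 0.280 and 0.265 in the 7R libraries and 0.0764, 0.0632 and 0.0543 in the 786-O libraries, higher in each 7R library than in any of 786-O. The RNASEH2C count per RNASEH2A count was 0.403, 0.381 and 0.349 in the 7R libraries and 0.293, 0.261 and 0.281 in the 786-O libraries, a smaller gap that again left no overlap. Transcripts of RNASEH2A have 51.5% GC, those of RNASEH2B 44.4% and those of RNASEH2C 60.3%, and the part of this in the ratios was not tested.

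TREX1, the cytosolic DNA exonuclease, had 523, 329 and 354 counts in the 7R libraries, against 1027, 1228 and 1360 counts in the 786-O libraries. The lines did not overlap at 9.38 ± 2.39 CPM in 7R and 27.2 ± 3.48 CPM in 786-O, and resistant library 1 was again the nearest of 7R to 786-O. The log2 fold change was -1.54 ± 0.18, and -0.25 ± 0.11 after the offset, where it did not pass unless resistant library 1 was left out (-0.37). At 62.1% GC it belongs to the 1423 tested genes richest in GC, whose median was -1.35. All of its exonic bases (100.0%) also lie in exons of ATRIP on the same strand, so its count is uncertain. ATRIP, the partner of the checkpoint kinase ATR, had 1036 counts over the 7R libraries and 2793 over those of 786-O (log2 fold change -1.38, edgeR adjusted p = 5.44e-06, and -0.65 after the offset).

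SAMHD1 and ADAR were close in the 2 lines. SAMHD1 had 1322, 1568 and 1369 counts in the 7R libraries, against 1862, 1714 and 1581 counts in the 786-O libraries. Its levels of 33.2 ± 3.12 CPM in 7R and 38.9 ± 3.72 CPM in 786-O overlapped, with a log2 fold change of -0.23 ± 0.12. It was past the threshold as lower after the offset (-0.71 ± 0.081) and without control library 3 (-0.34), while library size alone gave 0.11. ADAR had 22832, 22104 and 21690 counts in the 7R libraries, against 24786, 25288 and 27178 counts in the 786-O libraries. Its levels of 519 ± 8.99 CPM in 7R and 582 ± 18.7 CPM in 786-O did not overlap, and its log2 fold change of -0.17 ± 0.090 did not pass. It was past the threshold at -0.18 ± 0.062 after the offset (but not with GC content alone, at -0.062), at -0.24 without control library 1 and at -0.19 without resistant library 1, while library size alone gave 0.18.

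IFI16 had the largest increase of the 10. It is a PYHIN-family protein that binds DNA in the nucleus and the cytosol. It had 2622, 4191 and 3954 counts in the 7R libraries, against 834, 628 and 589 counts in the 786-O libraries. Every 7R library lay above every 786-O library, resistant library 1 being the lowest of 7R. Levels averaged 83.9 ± 20.3 CPM in 7R and 15.5 ± 3.09 CPM in 786-O, a 5.42-fold increase and a log2 fold change of 2.44 ± 0.19, and 1.40 ± 0.12 after the offset. Its transcripts have 40.3% GC, and the 1423 genes in that range of GC content had a median of 1.13. Of its relatives, AIM2, named after its values were seen, had 2 counts over the 7R libraries and 1 over those of 786-O, and MNDA and PYHIN1 had 0 throughout.

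TBK1 was higher in 7R, while IRF3, the factor it phosphorylates, was lower with TMM scaling and slightly higher after the offset. TBK1 had 1200, 1705 and 1824 counts in the 7R libraries, against 442, 409 and 382 counts in the 786-O libraries. The lines were well apart at 36.9 ± 8.02 CPM in 7R and 9.30 ± 0.808 CPM in 786-O, with resistant library 1 again nearest to 786-O. The log2 fold change was 1.99 ± 0.16 (3.96-fold), and 0.81 ± 0.098 after the offset. TBK1 belongs to the 1423 tested genes poorest in GC, whose median was 1.31. IRF3 had 2293, 1804 and 1843 counts in the 7R libraries, against 3954, 4484 and 5052 counts in the 786-O libraries. The lines did not overlap at 46.2 ± 5.98 CPM in 7R and 102 ± 11.0 CPM in 786-O, a log2 fold change of -1.14 ± 0.13, which became 0.24 ± 0.068 after the offset, past the threshold in the other direction (with GC content alone it was 0.16 and did not pass). Of its exonic bases 20.1% overlap BCL2L12 on the opposite strand, which was at -1.50 before and -0.50 after the offset. The TBK1 count per IRF3 count was 0.523, 0.945 and 0.990 in the 7R libraries and 0.112, 0.0912 and 0.0756 in the 786-O libraries, with no overlap. This ratio is of raw counts without the offset, which brought the log2 fold changes of TBK1 and IRF3 nearer, from 1.99 and -1.14 to 0.81 and 0.24. Transcripts of TBK1 have 39.3% GC and those of IRF3 61.2%, and the part of this in the ratio was not tested.

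**Figure D3:**
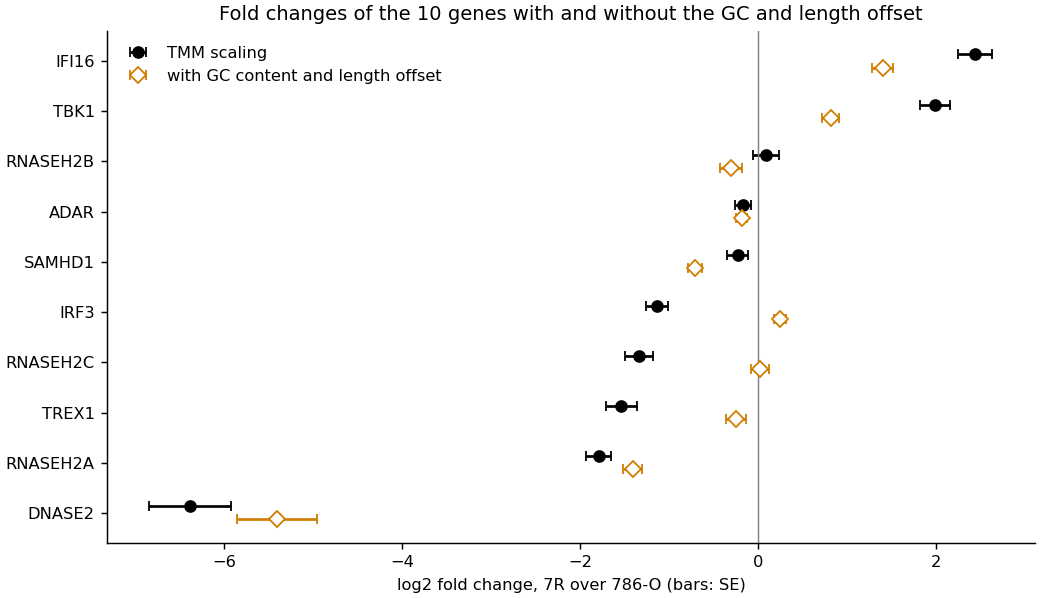
Log2 fold changes (7R over 786-O, bars are SE) of the 10 genes with TMM scaling and after the GC content and length offset. DNASE2 at -6.38 and -5.41 lies far from the others, IFI16 and TBK1 are above 0 under both, and the values of IRF3 lie on opposite sides of 0.

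**Figure D4:**
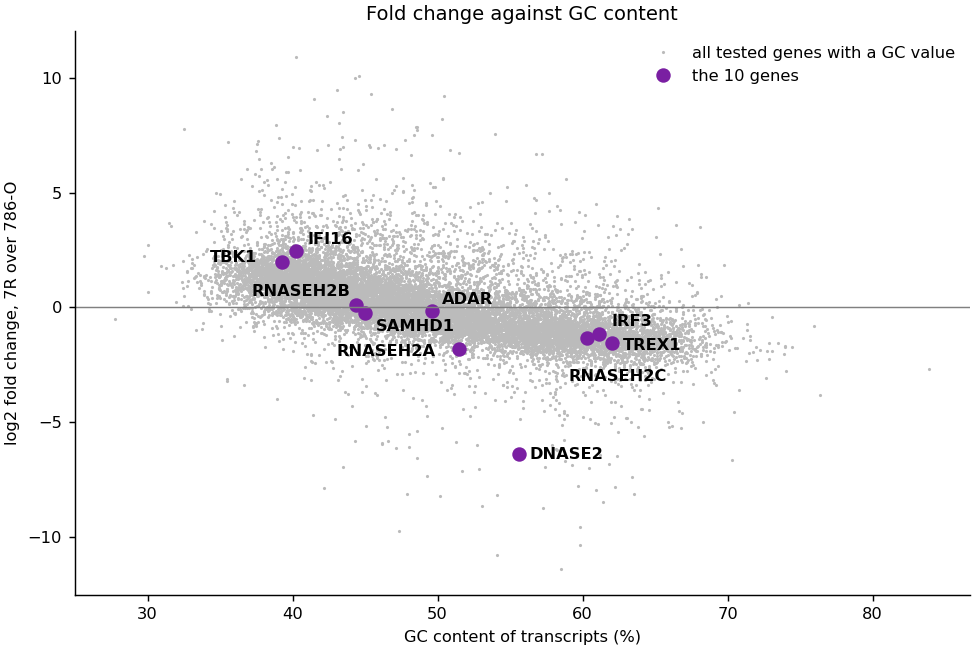
Log2 fold change (7R over 786-O, TMM scaling) against the GC content of transcripts in percent, for the tested genes with a GC value and the 10 genes by name. The cloud slopes down to the right, and DNASE2 lies far below most of it at 55.6% GC. Other plotted genes lie lower still, among them SYT13 at -8.13 and S1PR3 at -7.32.

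The order of levels was compared per transcript length, in TPM over genes with a known length. TPM was not TMM-scaled and serves only to order genes within a line. By TPM, ADAR averaged 199 in 7R and 144 in 786-O, and SAMHD1 22.8 and 17.3, whereas in TMM-scaled CPM both averaged lower in 7R. In 7R, ADAR was highest at 197 to 201 TPM, followed by IRF3 (73.6 to 89.5) and IFI16 (54.8 to 91.5), which overlapped. RNASEH2A, TBK1, SAMHD1, TREX1 and RNASEH2C came next, each of these 5 overlapping the one beside it in this order. RNASEH2B (12.8 to 15.9) and DNASE2 (0 to 0.455) were last and each stood apart. In 786-O the order was ADAR (141 to 148), IRF3 (106 to 119), RNASEH2A (72.1 to 83.1), TREX1, RNASEH2C and SAMHD1, with no overlap between neighbours. DNASE2 (9.93 to 11.6), IFI16 (7.44 to 12.0) and RNASEH2B (7.60 to 9.48) followed, DNASE2 overlapping IFI16 and IFI16 overlapping RNASEH2B. TBK1 was lowest at 4.03 to 5.29, apart from RNASEH2B.

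Of 29 other genes of cytosolic DNA sensing 21 were tested, 9 of them higher and 10 lower (median -0.075), beside 39.3% and 36.9% of all genes. After the offset 8 were higher and 6 lower, beside 34.4% and 32.6%. The sensor cGAS, listed as MB21D1, averaged 20.7 ± 1.53 CPM in 7R and 21.8 ± 2.23 CPM in 786-O and did not pass (edgeR adjusted p = 0.590), but was -0.37 after the offset. Its adaptor STING, listed as TMEM173 and picked out after its values were seen, averaged 17.1 ± 0.633 CPM in 7R and 30.6 ± 4.28 CPM in 786-O, a log2 fold change of -0.84 that became 0.26 after the offset. TANK, a TBK1-binding scaffold, rose to 58.9 ± 14.6 CPM in 7R, against 13.9 ± 1.66 CPM in 786-O (log2 fold change 2.08, edgeR adjusted p = 8.27e-07, and 0.96 after the offset). PRKDC, the catalytic subunit of DNA-dependent protein kinase, had a log2 fold change of 1.20 (0.46 after the offset). DDX41, a helicase described as a DNA sensor, fell to 52.7 ± 6.84 CPM in 7R, against 121 ± 5.06 CPM in 786-O (log2 fold change -1.20, and -0.25 after the offset). TRIM21, an antibody receptor and ubiquitin ligase, had -1.27 (-0.83 after the offset). IRF5 did not pass (0.024) and was 1.42 after the offset.

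Of 33 RNA-sensing genes 29 were tested, 12 of them higher and 14 lower (median -0.35), beside 39.3% and 36.9% of all genes. After the offset 11 were higher and 7 lower, beside 34.4% and 32.6%. DDX60, a helicase linked to RIG-I signalling, rose to 36.0 ± 8.52 CPM in 7R, against 6.46 ± 0.0911 CPM in 786-O (log2 fold change 2.48, edgeR adjusted p = 2.28e-07, and 1.19 after the offset). EIF2AK2, the kinase PKR, had a log2 fold change of 1.51 and the helicase DHX36 of 1.78 (0.28 and 0.64 after the offset). The cytosolic RNA sensors RIG-I (DDX58) and MDA5 (IFIH1), named after their values were seen, had 2.73 and 2.06 (1.60 and 1.34 after the offset). DHX58 and MAVS of the same list, also named after their values were seen, had -2.97 and -0.95 (-1.86 and -0.85 after the offset). MYD88, the adaptor of most Toll-like receptors, fell to 11.0 ± 1.56 CPM in 7R, against 40.1 ± 4.64 CPM in 786-O (log2 fold change -1.87, and -0.83 after the offset). TRIM25, a ubiquitin ligase of RIG-I, and OAS1, which makes the activator of RNase L, did not pass (0.088 and 0.44), though OAS1 did without resistant library 1 (0.68), and both did with library size alone (0.43 and 0.79) and after the offset (0.63 and 0.84).

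Of the interferon genes, 3 were listed. IFNB1, named after its values were seen, had 6 counts over the 7R libraries, all in resistant library 2, and 0 over those of 786-O, and IFNA1 and IFNL1 had 0 throughout. A 0 may not mean absence in this table, where the lysosomal enzyme genes NEU1 and GALC were also at 0 in all 6 libraries. Of 40 listed genes of interferon signalling and response 30 were tested, 15 of them higher and 12 lower (median 0.33), beside 39.3% and 36.9% of all genes. After the offset 16 were higher and 6 lower (median 0.42), beside 34.4% and 32.6%. XAF1, a pro-apoptotic interferon-induced protein, rose to 25.9 ± 3.42 CPM in 7R, against 1.47 ± 0.362 CPM in 786-O (log2 fold change 4.14, edgeR adjusted p = 2.41e-08, and 3.69 after the offset). IFI44L, an interferon-induced protein, had a log2 fold change of 4.01 (2.65 after the offset). TYK2, a kinase of the interferon receptor, had -1.28, and -0.016 after the offset, where it did not pass. USP18, which dampens interferon signalling, and the antiviral membrane protein IFITM2 did not pass (0.21 and -0.26), and both were higher after the offset (0.71 and 0.53), USP18 also with library size alone (0.55).

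**Figure D5:**
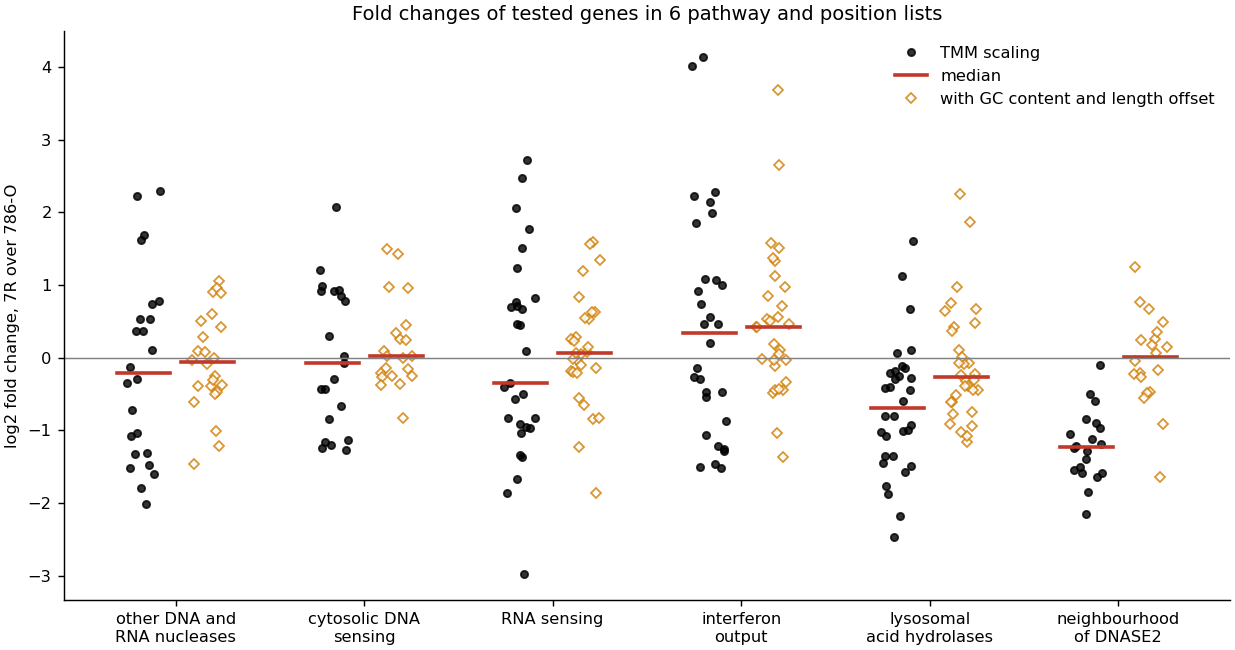
Log2 fold changes (7R over 786-O) of the tested genes in the 6 lists, with TMM scaling and after the GC content and length offset, and the median of each. The DNASE2 neighbourhood has a median of -1.23 with TMM scaling and 0.010 after the offset, and the other lists spread to both sides of 0.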

How the data were processed

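Total RNA of 6 libraries was sequenced by Illumina technology, as the labels state. The authors deposited raw counts per gene symbol. The submitters' processing notes name HISAT2 2.0.4; for the counting program, strand setting, build and annotation nothing is given in the sources used here, so overlapping genes may share reads. Columns were matched to samples by title. Counts were filtered (filterByExpr) and scaled by TMM, and edgeR 4.0.16 (R 4.3.3) was run without covariates, with Benjamini-Hochberg adjustment over 16642 genes. The SE was obtained as |log2 fold change| divided by √F. GC content and length were medians over GENCODE 29 basic transcripts (35933 of 54261 rows matched, 85.5% of tested genes). The offset was fitted per library to log2 CPM deviations (prior count 1) with natural splines, 6 df for GC and 5 df for log2 length. It also removes any biological difference that follows GC content. No 2 libraries of a line agreed within sampling noise. Intervals and floors cover only counting error, as PCR duplicates are not separate molecules. The tests were checked on simulated data in which few genes changed. That check does not cover scaling where most genes differ, as here.

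The 10 genes and all lists were chosen with earlier results of these data known. Per list, the text names by rule up to 4 genes past the threshold with the smallest p and up to 2 with the highest CPM that did not pass, and around DNASE2 the nearest 5 tested genes on either side; the 4 that the neighbourhood list itself adds (NFIX, WDR83OS, ASNA1 and NACC1, all lower) are not described further, genes with 0 counts in all libraries may also be named, and other genes outside the rule are marked, except ATRIP, KAT5 and BCL2L12, given as overlapping genes, and the cell type markers. Of the genes the rule picks, 2 are not reported here. DNASE2-like genes needed a mean of at least 5 CPM and an ordinary gene symbol. Alternatives were library-size and upper-quartile scaling, DESeq2 1.42.0, no low-count filter, 1 CPM in 3 libraries, each library left out, a replicate block, and offsets for GC alone, with the block or without resistant library 1.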

Additional observations from a re-analysis of the deposited data

How the results depend on the processing

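Under the 16 alternatives DNASE2 (-7.76 to -4.79 on the log2 scale) and RNASEH2A (-1.94 to -1.41) stayed lower and IFI16 (1.35 to 2.78) and TBK1 (0.81 to 2.33) higher, all past the threshold. Library size alone moved the median of all genes to 0.39, against 0.049 with TMM, and the higher share of calls to 62.5%, against 51.6%. It gave 7 lower interferon genes, against 12 with TMM, where 4720 of all 16642 genes were lower, against 6143. The offsets test fewer genes, only those with a GC value, and the cause of the changes under them was otherwise not tested.

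Among the genes named by rule, and counting only those with a call before or after, directions turned with the GC and length offset for RNASEH2B (-0.30), RNASEH2C (0.027), IRF3 (0.24), DNASE1 (0.42), IFITM2 (0.53), HOOK2 (1.25), JUNB (0.76), PRDX2 (0.49), GCDH (0.066), FARSA (0.26), and lists had 6 lower for DNA sensing, 7 lower for RNA sensing, 6 lower for interferon, 8 lower for the neighbourhood, 8 higher for hydrolases, 7 higher for the neighbourhood. With GC alone they turned for RNASEH2B (-0.45), IRF3 (0.16), DNASE1 (0.54), TYK2 (0.048), IFITM2 (0.70), HOOK2 (1.23), JUNB (0.64), PRDX2 (0.58), FARSA (0.13), with 6 lower for DNA sensing, 8 lower for RNA sensing, 5 lower for interferon, 7 lower for the neighbourhood, 8 higher for hydrolases, 4 higher for the neighbourhood. With GC and length but no resistant library 1 they turned for IRF3 (0.22), PLD3 (0.027), DNASE1 (0.43), TYK2 (0.017), IFITM2 (0.49), HOOK2 (1.35), JUNB (0.84), PRDX2 (0.42), MAST1 (0.068), GCDH (0.13), FARSA (0.23), with 6 lower for RNA sensing, 6 lower for interferon, 7 lower for the neighbourhood, 8 higher for hydrolases, 7 higher for the neighbourhood. With GC, length and the replicate block they turned for RNASEH2C (0.018), IRF3 (0.24), DNASE1 (0.42), IFITM2 (0.52), HOOK2 (1.25), JUNB (0.76), PRDX2 (0.49), GCDH (0.071), FARSA (0.26), with 6 lower for DNA sensing, 5 lower for RNA sensing, 5 lower for interferon, 7 lower for the neighbourhood, 8 higher for hydrolases, 6 higher for the neighbourhood. Beside these list counts, 4633 of 14229 genes were lower and 4889 higher with GC and length, and 4610 and 4858 with GC alone. Without resistant library 1 the totals were 4872 and 5057 of 14763, and with the block 4415 and 4604 of 14229. Nothing is read from the list counts. Over the named genes, 657 of the values without a GC term neither gained, lost nor reversed a call, 11 gained one and 1 lost it (PRDX2, -0.16 with library size alone).

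Leaving out single libraries gave 6179 to 6789 higher genes. Libraries of the same number did not deviate together (r across genes -0.13, -0.013 and -0.058). With 3 libraries per line these values cannot show whether the numbers pair them, and the labels do not say. The replicate block gave 6246 higher and 5851 lower genes, against 6540 and 6143, and changed no call among the 10 without the offset; with it, the call of RNASEH2B was lost (-0.30).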
